A study of Mus musculus with 12 samples.

Results

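Levels of 8 genes of the enteric nervous system and of the gut's pacemaker cells were followed in injured mouse cecum, namely Kit, Ano1, Elavl4, Uchl1, Chat, Nos1, Vip and Ret. They were found by their gene name among the non-control probes of each array, which gave 19 probes of 56605 in all and 8 genes of 37595. Total RNA came from the cecum of C57BL/6 mice labelled male, in 4 groups of 3 arrays. These were a sham control, taken at 0 h from the sham operation according to the methods, and ceca taken 3, 12 or 72 h after the cecum was cauterized with bipolar forceps. No sham array was taken at 3, 12 or 72 h. Cautery therefore cannot be told apart from the rest of the operation or from the time since it. The age of the mice is not given in the sources used here. None of the 8 genes is a marker of glia, so the glial genes are described below from a separate list.

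The enteric nervous system is a network of neurons and glia within the gut wall that drives motility and secretion without input from the brain. Its excitatory motor neurons release acetylcholine, and its inhibitory motor neurons release nitric oxide and vasoactive intestinal peptide onto the smooth muscle. Interstitial cells of Cajal lie between the nerve endings and the muscle, carry the receptor tyrosine kinase KIT and the chloride channel ANO1, and generate the electrical slow waves. The receptor tyrosine kinase RET and its GDNF family ligands guide the neural crest cells that build this network.

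The promoters of the 2 genes that passed the test against sham, Kit and Vip, and that of Ano1, the other pacemaker gene, are shown because the results below turn on these genes. Each run is the 250 bases before the annotated start in the RefSeq promoter table (GRCm38.p6), read along the gene's own strand, at chr10:5638968-5639217 on the plus strand for Vip, chr5:75574737-75574986 on the plus strand for Kit and chr7:144738574-144738823 on the minus strand for Ano1. Capitals mark the core of the cAMP response element (TGACGT), the GC box (GGGCGG) and the TATA box (TATAAA), each searched on both strands.
Vip: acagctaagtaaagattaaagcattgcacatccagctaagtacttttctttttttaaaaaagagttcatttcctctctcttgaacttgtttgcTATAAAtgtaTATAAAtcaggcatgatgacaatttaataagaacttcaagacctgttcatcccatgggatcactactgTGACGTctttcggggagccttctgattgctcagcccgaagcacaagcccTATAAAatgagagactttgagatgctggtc
Kit: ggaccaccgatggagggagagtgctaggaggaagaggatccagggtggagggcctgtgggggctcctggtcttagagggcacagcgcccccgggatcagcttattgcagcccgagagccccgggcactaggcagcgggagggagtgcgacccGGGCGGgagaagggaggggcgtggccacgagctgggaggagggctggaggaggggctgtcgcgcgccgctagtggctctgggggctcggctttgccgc
Ano1: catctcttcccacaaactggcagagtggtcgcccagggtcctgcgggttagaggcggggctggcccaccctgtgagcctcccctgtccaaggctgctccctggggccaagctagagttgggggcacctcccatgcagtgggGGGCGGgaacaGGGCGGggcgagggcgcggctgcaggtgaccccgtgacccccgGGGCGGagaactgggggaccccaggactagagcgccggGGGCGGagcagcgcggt
The Vip stretch held 1 cAMP response element core, 79 bases before the start, and a TATA box 30 bases before it, with further copies at 147 and 157 bases. The Kit stretch held 1 GC box, 98 bases before the start, and the Ano1 stretch held 4, at 17, 55, 98 and 109 bases. Over the 32851 promoters of the table, cut to that length, 6.47% held TGACGT, 32.7% held GGGCGG and 12.4% held TATAAA, so that the GC box in particular is common. A match is a description of the letters and not a shown binding site. The table had entries for 7 of the 8 genes, and Ret was not among them. The cores in Elavl4 and Chat, 58 and 172 bases before an annotated start, lay on the opposite strand.

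Kit was also measured by 2 adjoining probes to a cDNA clone (AK047175) that lies at lower coordinates than the mRNA probe on the same chromosome, at chr5:76048202-76048261 and chr5:76048262-76048321 of mm9. Both are shown because the values of the Kit probes are set side by side below, with no letter capitalised. The files pair them with no RefSeq transcript, and no exon or intron was assigned here.
Kit clone, first probe: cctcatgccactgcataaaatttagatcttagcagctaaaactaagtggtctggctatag
Kit clone, second probe: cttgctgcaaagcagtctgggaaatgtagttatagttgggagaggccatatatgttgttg

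Levels are given on the log2 scale relative to the 75th percentile of the array's non-control probes, so that 0 is the brightness of that percentile. A level of 1 probe cannot be set against that of another. Differences were fitted with limma over all 12 arrays and adjusted by Benjamini-Hochberg over 56605 probes, and a probe was called if it changed more than 2-fold with an adjusted p under 0.05. Where a gene had several probes it is represented by the one with the highest mean over the 12 arrays, and the others are given beside it. The representing probe of each of the 8 genes was well above background on all 12 arrays. Taking all 19 probes together, 9 reached that mark on every array, 6 on some and 4 on none.

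On each array 60.2% to 65.2% of probes stood well above background, and saturated spots numbered 0. The sex genes go against the label, with Xist detected on 12 arrays and Ddx3y and Eif2s3y on 0, although 1 of 6 Kdm5d probes was detected on 12. The arrays lay on 2 slides, with all sham and 3 h arrays and 12 h replicates 1 and 2 on slide 1, and 12 h replicate 3 and all 72 h arrays on slide 2. Slide and the 72 h time point therefore cannot be told apart except through that single 12 h array.

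**Figure D1:**
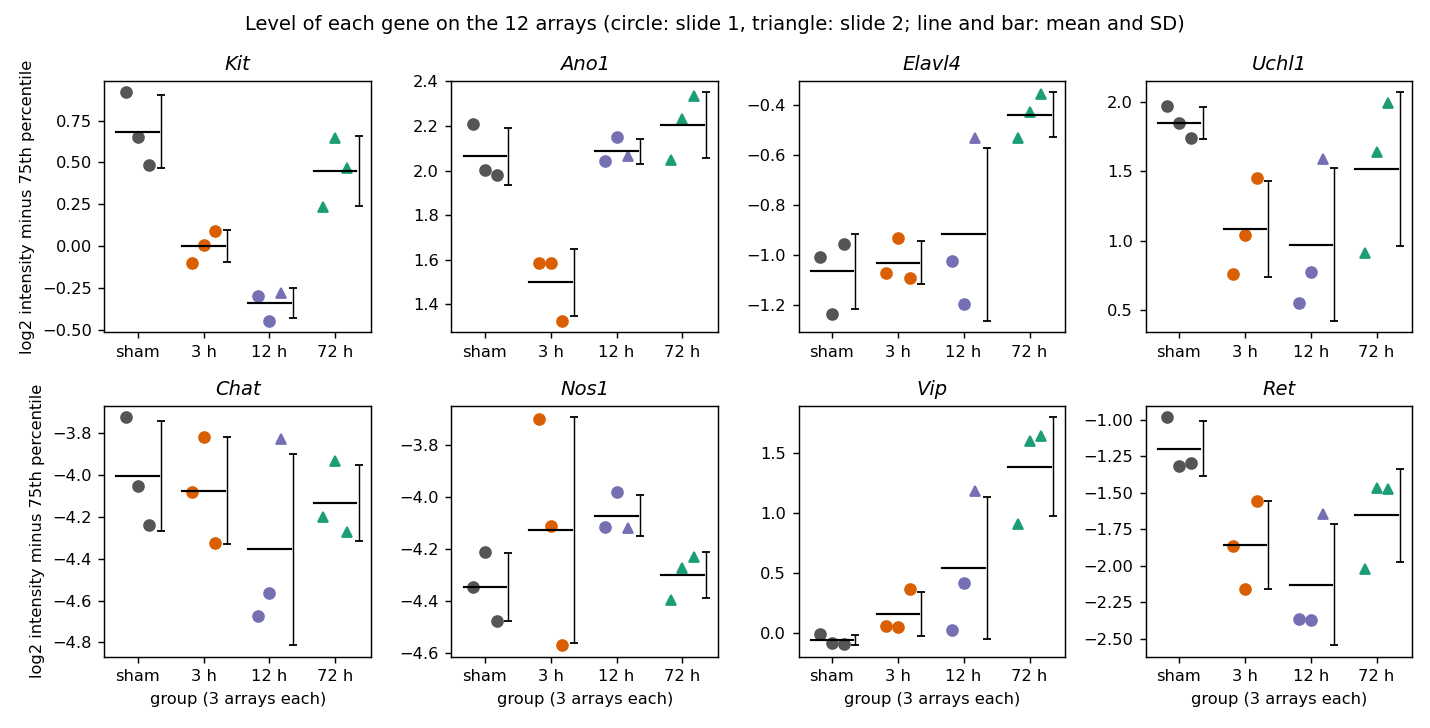
Level of each of the 8 genes (y axis, log2, relative to the array's 75th percentile) on the 3 arrays of each group (x axis), with the group mean as a line and the SD as a bar beside it. Circles lie on slide 1 and triangles on slide 2, and the purple triangle is 12 h replicate 3, which lies among or beside the 72 h arrays for Elavl4, Uchl1, Vip and Ret but among the 12 h arrays for Kit.

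Across the 8 genes, 0 were called at 3 h, 1 at 12 h and 1 at 72 h. Kit fell at 12 h and Vip rose at 72 h. Over the 20975 genes well above background on all 12 arrays, 4.57% were called lower and 4.1% higher at 3 h. The shares were 6.1% and 4.97% at 12 h and 4.09% and 5.61% at 72 h. A share of 8 genes moves in steps coarser than these percentages, so a single called gene is no more than a count. With the adjusted p alone, 2 genes passed at each time point, Kit and Ano1 at 3 h, Kit and Ret at 12 h, and Elavl4 and Vip at 72 h, where 27.6%, 31.9% and 30.2% of those 20975 genes passed. The 95% intervals of the differences give the precision that 3 arrays per group allow.

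**Figure D2:**
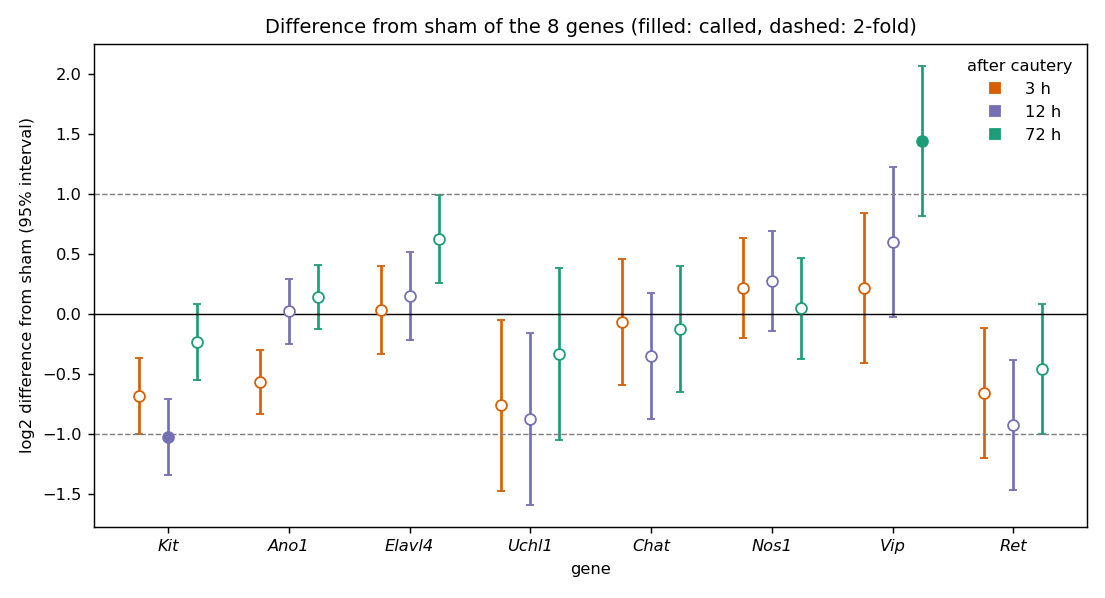
Log2 difference from sham (y axis) of the 8 genes (x axis) at 3, 12 and 72 h, as points with their 95% intervals. Filled points were called, and the dashed lines mark a 2-fold change. Kit at 12 h, at -1.03, and Vip at 72 h, at 1.44, are the filled points.

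By their representing probes the pacemaker genes were lowest early, Kit at 12 h and Ano1 at 3 h, and both were close to sham at 72 h. Kit, the receptor for stem cell factor that interstitial cells of Cajal and mast cells need, was read by an mRNA probe at chr5:76052394-76052453 of mm9 and had levels of 0.92, 0.65 and 0.48 on the sham arrays. It stood at -0.10, 0.01 and 0.09 at 3 h, at -0.30, -0.45 and -0.28 at 12 h, and at 0.23, 0.65 and 0.47 at 72 h. All 3 h and 12 h arrays lay below all sham arrays, and the 72 h arrays overlapped the sham arrays. The difference from sham was -0.69 ± 0.14 (SE, n = 3 per group) at 3 h, with an adjusted p of 0.00884 from limma and a fold under 2. At 12 h it was -1.03 ± 0.14, a 2.04-fold fall with an adjusted p of 0.00084 from limma.

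This fall of Kit is just past the fold threshold. It was -0.996 with an adjusted p of 0.000914 from limma in the authors' log2 table, and -0.91 with limma without sham replicate 1, each under 2-fold. At 72 h Kit differed from sham by -0.24, with an adjusted p of 0.291 from limma and a 95% interval from -0.55 to 0.08. From 12 to 72 h Kit rose by 0.79 on the log2 scale, with an adjusted p of 0.00494 from limma, which is 1.73-fold. Within slide 2, the 72 h mean lay 0.73 above 12 h replicate 3, and within slide 1 the other 12 h arrays lay 1.06 below sham.

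The cDNA clone probes of Kit also had their lowest levels at 3 and 12 h. The probe at chr5:76048262-76048321 was well above background on all 12 arrays. Its levels were -2.63, -3.27 and -3.23 in sham, -5.04, -4.59 and -4.51 at 3 h, then -5.26, -4.91 and -3.85 at 12 h, and finally -3.22, -3.68 and -3.64 at 72 h. The 3 h and 12 h arrays all lay below the sham and 72 h arrays. It fell by 1.67 on the log2 scale at 3 h, 3.18-fold, with an adjusted p of 0.00736 from limma, and by 1.63 on the log2 scale at 12 h with an adjusted p of 0.00681. The 12 h array on slide 2 was the highest of its group. Within slide 1 the 12 h difference from sham was -2.04, and within slide 2 the 72 h mean lay 0.33 above that array. From 12 to 72 h the probe was called higher, at 1.16 with an adjusted p of 0.0402 from limma, but with the slide as a block this was 0.33 with an adjusted p of 0.585. Its 72 h difference from sham was -0.48, with an adjusted p of 0.365 from limma. With the slide as a block that difference was -1.71, with an adjusted p of 0.0606 from limma. The other clone probe was well above background on every sham and 72 h array but on 1 array each at 3 and 12 h, so that its level there rests mostly on arrays where it was not above background. Whether the clone and mRNA probes differ in their response was not tested.

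**Figure D3:**
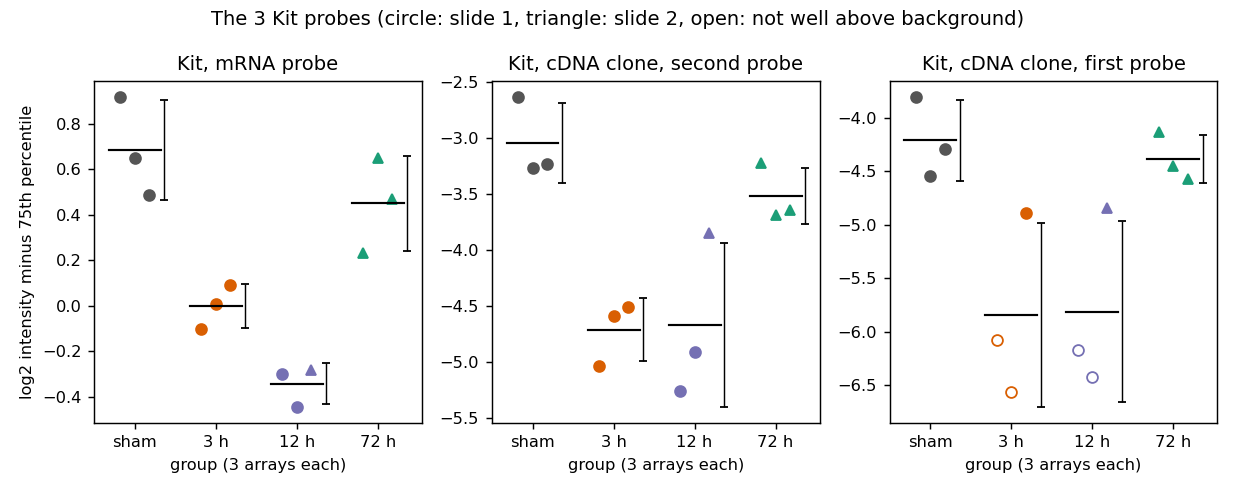
Level of the 3 Kit probes (y axis, log2 intensity minus the 75th percentile) on the 12 arrays by group (x axis), with the group mean as a line and the SD as a bar. Circles lie on slide 1, triangles on slide 2, and open symbols were not well above background. In all 3 panels the 3 h arrays lie below the sham arrays, by 0.69 on average for the mRNA probe and by 1.67 for the clone probe that was above background on all 12 arrays, while the other clone probe was above background on 1 array at 3 h.

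Ano1, the calcium-activated chloride channel of the slow wave, differed from sham at 3 h, by a probe at chr7:151774604-151774663. Its levels were 2.21, 2.0 and 1.98 in sham, 1.59, 1.58 and 1.33 at 3 h, then 2.04, 2.15 and 2.07 at 12 h, and finally 2.05, 2.23 and 2.33 at 72 h. The 3 h arrays lay below all 9 others, while the remaining groups overlapped. The difference from sham was -0.57 ± 0.12 (SE, n = 3 per group), which is 1.48-fold, with an adjusted p of 0.0098 from limma. From 3 to 12 h it rose by 0.59 with an adjusted p of 0.0171 from limma, also under 2-fold. The 95% interval of the 12 h difference from sham ran from -0.25 to 0.29.

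KIT-bearing mast cells also sit in the gut wall, and smooth muscle lies around the pacemaker cells, so the markers of both are given here. The 18 smooth muscle markers had a summed level, in multiples of the array's 75th percentile, of 471 to 527 in sham, 264 to 323 at 3 h, 169 to 259 at 12 h and 197 to 247 at 72 h. Of the 18, 5 were called lower at 3 h, 14 at 12 h and 10 at 72 h, none was called higher, and each was well above background on at least 1 array. The summed level of the 14 mast cell markers was 2.04 to 3.03 in sham, 8.78 to 13.3 at 3 h, 17.9 to 26.7 at 12 h and 10.2 to 14.3 at 72 h. Of these 14, 3, 1 and 5 were called higher at 3, 12 and 72 h and none lower, led by Hdc, the histamine-forming enzyme that other leukocytes also express, at 6.70, 8.52 and 7.38. Without Hdc, left out after its values were seen, the summed level of the other 13 was 2 to 2.97 in sham, 5.45 to 6.29 at 3 h, 2.98 to 4.44 at 12 h and 3.18 to 6.14 at 72 h. The median difference of the 14 from sham was 0.44, 0.44 and 0.97 at the 3 time points. Among the 14, 10 were well above background on all 12 arrays. Cma1, 1 of those 10, had means of -3.72 in sham, -1.31 at 3 h, -3.01 at 12 h and -0.57 at 72 h. Mrgprb1 and Mrgprb2, which mark connective tissue mast cells, were not well above background on any array. The part of muscle or mast cells in the Kit values was not tested. In whole tissue, fewer cells of a type and less RNA per cell cannot be told apart.

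Of the neuronal identity genes, Uchl1 and Ret had their lowest means at 12 h and ran alongside each other over the arrays. By its representing probe, the mean of Elavl4 was not below sham at any time point. Within slide 1 alone, the 12 h difference of Elavl4 from sham was -0.04. Uchl1, the neuronal ubiquitin hydrolase PGP9.5 used to stain enteric nerves (probe at chr5:67078408-67078467), stood at 1.97, 1.85 and 1.74 in sham. It was 0.76, 1.04 and 1.45 at 3 h, then 0.55, 0.77 and 1.59 at 12 h, and finally 0.91, 1.64 and 1.99 at 72 h. All 3 h and 12 h arrays lay below all sham arrays, but the spread within a group was wide. The differences from sham were -0.76 ± 0.32 (SE, n = 3 per group) at 3 h and -0.88 ± 0.32 at 12 h, with adjusted p of 0.133 and 0.082 from limma, and neither passed. At 72 h the difference was -0.33, with an adjusted p of 0.505 from limma.

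Ret, the receptor of the GDNF family (probe at chr6:118101791-118101850), had levels of -0.98, -1.32 and -1.30 in sham and -1.86, -2.16 and -1.56 at 3 h. They were -2.36, -2.37 and -1.65 at 12 h and -2.02, -1.46 and -1.47 at 72 h. All 9 injured arrays lay below the 3 sham arrays. At 3 h Ret differed from sham by -0.66 ± 0.24 (SE, n = 3 per group) with an adjusted p of 0.0896 from limma, at 12 h by -0.93 ± 0.24, 1.91-fold, with an adjusted p of 0.0218, and at 72 h by -0.46 with an adjusted p of 0.228. The 12 h difference passed the adjusted p but not the 2-fold threshold.

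For both genes 12 h replicate 3, on slide 2, lay well above the other 12 h arrays. Without it, or with the slide as a block, Uchl1 differed from sham at 12 h by -1.19 and Ret by -1.17, with adjusted p of 0.024 and 0.00703 from limma, and both were then called. These are not separate checks, since the slide term takes up that array and leaves the same 12 h fit. The 72 h differences with the slide as a block were -1.26 for Uchl1 and -1.18 for Ret, with adjusted p of 0.201 and 0.121 from limma, so that both moved away from sham and neither passed. Within slide 2, the 72 h mean of Uchl1 lay 0.08 below that array and the mean of Ret 0.01 below it. Pearson's r between Uchl1 and Ret was 0.92 over the 12 arrays, which share their groups and slides.

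**Figure D4:**
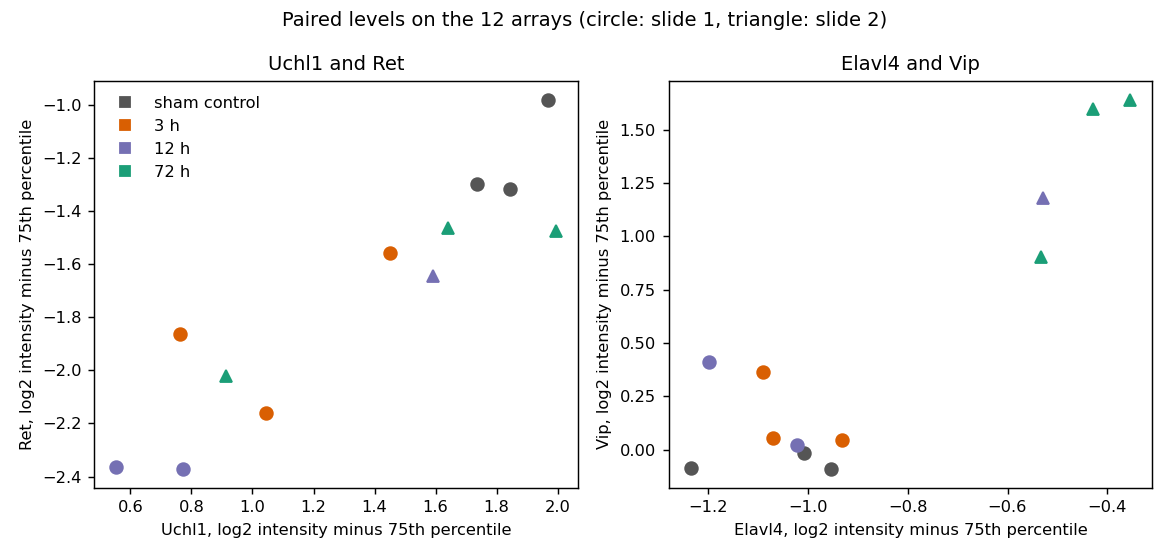
Levels of Ret against Uchl1 and of Vip against Elavl4 (axes, log2 intensity minus the 75th percentile) on the 12 arrays, coloured by group. Circles lie on slide 1 and triangles on slide 2. In the left panel the 12 h arrays of slide 1 are among the lowest for both genes, and in the right panel the 4 arrays of slide 2 stand apart from the 8 arrays of slide 1 for both genes.

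Elavl4, the neuronal RNA-binding protein HuD (probe at chr4:109877455-109877514), had levels of -1.01, -1.23 and -0.95 in sham, -1.07, -0.93 and -1.09 at 3 h, then -1.02, -1.20 and -0.53 at 12 h, and finally -0.53, -0.43 and -0.35 at 72 h. The sham and 3 h arrays overlapped, and the 72 h arrays lay above both. At 72 h the difference from sham was 0.63 ± 0.16 (SE, n = 3 per group), 1.54-fold, with an adjusted p of 0.0234 from limma and under the 2-fold threshold. Every array on slide 2 was higher for Elavl4 than every array on slide 1, and with the slide as a block the 72 h difference was 0.05, with an adjusted p of 0.92 from limma. Of its other probes, 1 was well above background on 7 arrays and 1 on none, and neither passed the adjusted p against sham. The call of the first of these between 3 and 72 h, with an adjusted p of 0.0408 from limma, is given no fold, since it was well above background on 0 arrays at 3 h. The other Uchl1 probe was well above background on 2 arrays and did not pass either.

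Among the transmitter genes, Vip was called higher at 72 h, and Chat and Nos1 showed no difference that passed. Whether the genes differ in their response was not tested. The representing probes of Chat and Nos1 were dim, with intensities of 12.5 to 23.0 and 11.7 to 20.2. The dimmest signal that passed the background flag was 6.06 to 7.74 on the arrays, so their differences may be limited by signal. Vip, which encodes vasoactive intestinal peptide, a relaxant of gut muscle and a stimulant of secretion, had levels of -0.01, -0.08 and -0.09 in sham. It stood at 0.05, 0.05 and 0.37 at 3 h, at 0.02, 0.41 and 1.18 at 12 h, and at 0.90, 1.60 and 1.64 at 72 h. Every injured array lay above every sham array, and the 72 h arrays lay above all others but 12 h replicate 3. Its probe is placed at chr10:4699681-4701551 of mm9, a span longer than the probe itself, and on the minus strand. The Vip promoter shown above lies on the plus strand, and this difference was not resolved here.

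The Vip difference from sham was 0.22 ± 0.28 (SE, n = 3 per group) at 3 h and 0.60 ± 0.28 at 12 h, with adjusted p of 0.62 and 0.169 from limma. At 72 h it was 1.44 ± 0.28, 2.72-fold, with an adjusted p of 0.00596 from limma. From 3 to 72 h Vip rose by 1.23 on the log2 scale, with an adjusted p of 0.00917, and this was the only called difference between time points among the representing probes of the 8 genes. The step from 12 to 72 h, 0.84, had an adjusted p of 0.0677 from limma. Over all 37595 genes, 3.42% were called between 3 and 12 h, 7.39% between 12 and 72 h and 11.5% between 3 and 72 h.

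In the rise of Vip, time and slide cannot be told apart beyond what the single 12 h array on slide 2 gives. Within slide 2, the 72 h mean lay 0.20 above 12 h replicate 3, and within slide 1 the 12 h arrays lay 0.28 above sham. With the slide as a block, the 72 h difference was 0.48, with an adjusted p of 0.473 from limma. That fit takes its slide term from 12 h replicate 3 against the other 12 h arrays.

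Chat, the enzyme that makes acetylcholine (probe at chr14:33221421-33221480), had levels of -3.72, -4.05 and -4.24 in sham, -4.08, -3.82 and -4.33 at 3 h, then -4.67, -4.56 and -3.83 at 12 h, and finally -4.20, -3.93 and -4.27 at 72 h. The sham, 3 h and 72 h arrays overlapped, and the 12 h arrays overlapped them through replicate 3 on slide 2 alone. The differences from sham were -0.07, -0.35 and -0.13 at 3, 12 and 72 h, with adjusted p of 0.863, 0.353 and 0.726 from limma, and the 95% interval at 12 h ran from -0.88 to 0.18. The 12 and 72 h differences with the slide as a block were -0.61 and -0.92, with adjusted p of 0.0588 and 0.161 from limma, and neither passed. Of the 5 other Chat probes, 3 were well above background on 3 to 8 arrays and none of these passed the adjusted p. The remaining 2 were not well above background on any array, and the call of 1 of them at 72 h, with an adjusted p of 0.017 from limma, is given no fold for that reason.

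Nos1, the neuronal nitric oxide synthase (probe at chr5:118404306-118404365), stood at -4.35, -4.21 and -4.48 in sham, at -3.70, -4.11 and -4.57 at 3 h, at -4.12, -3.98 and -4.12 at 12 h, and at -4.40, -4.27 and -4.23 at 72 h. The 12 h arrays lay above all sham arrays by a small margin, and the other groups overlapped sham. The differences from sham were 0.22, 0.27 and 0.05, with adjusted p of 0.441, 0.362 and 0.879 from limma and a 95% interval at 12 h from -0.14 to 0.69. The other Nos1 probe was not well above background on any array.

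Counting arrays without a threshold, 4 of the 8 genes had all 3 h arrays below all sham arrays, namely Kit, Ano1, Uchl1 and Ret, where 25.8% of the 20975 genes did, and 1 had them above, Vip, where 24.8% did. At 12 h the counts were 3 below, Kit, Uchl1 and Ret, against 31.8%, and 2 above, Nos1 and Vip, against 20.8%. At 72 h, 1 lay below, Ret, against 33.9%, and 2 above, Elavl4 and Vip, against 17.7%. With 8 genes these are counts, and they carry no test.

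For each of the 8 genes, the pattern over the 12 arrays was set against that of 20947 other genes well above background on all of them. The pattern most like that of Uchl1 was that of Prph, which encodes peripherin, an intermediate filament of peripheral neurons, with a Pearson's r of 0.988. Those of Ret were Gng3, at 0.96, and Stmn3, at 0.957, both of them expressed in neurons. Vip was most like Epn2, at 0.961, and then Cartpt, which encodes a neuropeptide, at 0.941. Ano1 was most like Rfx3 and the potassium channel gene Kcnj10, at 0.963 and 0.947. Kit was most like Vezf1, at 0.985, Elavl4 like D830039M14Rik, at 0.951, Chat like 9430096G21Rik, at 0.94, and Nos1 like Lelp1, at 0.892, each followed by a probe with no gene name. These values describe arrays that share their groups and slides, and they carry no test.

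Other genes of the same system were read from lists written with earlier results of these data known. The lists share some genes, which are counted in each. Examples are Ncam1 (neuron and RET lists), Gfra3 (RET and glia lists) and Prkg1 (receptor and Cajal cell lists). Over all 37595 genes, 7.43% were called at 3 h, 9.25% at 12 h and 8.89% at 72 h in either direction, with a median log2 difference from sham of 0.06, -0.04 and -0.15. Of 25 enteric neuron markers, 1 was called higher and 2 lower at 3 h, against 1 and 5 at 12 h and, at 72 h, 1 and 2, with median differences of -0.54, -0.51 and -0.22. Of these markers, 23 were well above background on all 12 arrays.

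The rise among the neuron markers at 3 h was that of Phox2a, a transcription factor of noradrenergic and enteric neurons. Its level went from -1.93, -1.92 and -1.91 in sham to 2.53, 2.56 and 2.92 at 3 h and then to 0.04, -0.07 and 0.15 at 12 h. At 72 h, at -2.21, -2.05 and -1.61, it overlapped sham again. The difference from sham was 4.59 at 3 h, with an adjusted p of 1.18e-06 from limma, and 1.96 at 12 h with an adjusted p of 4.94e-05. Celf3, a neuronal splicing factor, was lower at 3, 12 and 72 h, at -1.12, -2.24 and -1.91, and Hand2, which enteric neurons need, fell by 1.27 on the log2 scale at 3 h. Ncam1, a neural cell adhesion molecule, fell by 2.21 on the log2 scale at 12 h and rose by 1.06 at 72 h. With the slide as a block its 72 h difference was 1.09, with an adjusted p of 0.191 from limma.

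Among the 22 transmitter and neuropeptide genes, 3 were called higher and 0 lower at 3 h, against 1 and 2 at 12 h and 5 and 5 at 72 h. Early, the calcitonin gene-related peptide genes led, Calca by 6.70 and Calcb by 2.62 at 3 h, with adjusted p of 9.59e-06 and 0.00329 from limma, and Tac1, the substance P precursor, rose by 1.18. Calca was well above background on 2 of the 3 sham arrays. Which cells of the tissue held the Calca and Calcb transcripts was not tested. At 72 h the neuropeptide genes Cartpt, Npy and Gal, the last encoding galanin, rose by 2.74, 2.22 and 1.99, while Calb2, the calretinin of enteric neurons, fell by 1.73 and was well above background on 1 of the 3 arrays at 72 h. Within slide 2, the 72 h means of Cartpt, Npy and Gal lay 1.66, 1.55 and 0.55 above 12 h replicate 3. With the slide as a block their 72 h differences were 1.82, 1.56 and 0.92, with adjusted p of 0.0704, 0.124 and 0.539 from limma, so none of them was then called.

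Receptors for these transmitters moved in both directions. Of 20, 1 was called higher and 5 lower at 3 h, against 2 and 5 at 12 h and 3 and 3 at 72 h. Chrm2, the most abundant muscarinic receptor of gut muscle, was lower at 3, 12 and 72 h, at -2.29, -3.05 and -2.31, and its call at 72 h held with the slide as a block. Chrm3, the muscarinic receptor that drives contraction, rose by 1.5, 1.87 and 1.43, and was well above background on 2 of the 3 sham arrays. Gucy1a3, a subunit of the guanylate cyclase that senses nitric oxide, was lower at 3 and 12 h, at -2.32 and -1.77, and Tacr1, the substance P receptor, rose by 1.78 at 12 h and 2.04 at 72 h. With the slide as a block the 72 h adjusted p of Chrm3 was 0.383 and that of Tacr1 0.434 from limma. Chrna3, Htr3b and Tacr3 were not well above background on any array.

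Around Ret, of 17 genes of the RET and endothelin pathways 2 were called lower at 3 h, 2 lower at 12 h and 3 higher at 72 h. Ncam1, named above among the neuron markers, is counted here as well at 12 and 72 h. Gfra2, the neurturin co-receptor, fell by 1.35 at 3 h, while Gfra1, the GDNF co-receptor, was well above background on the sham arrays alone. At 12 h Gfra1 was at least 1.31-fold lower than in sham, counted to each array's dimmest signal that passed the background flag, with an adjusted p of 0.0101 from limma. Artn, the ligand artemin, rose by 1.68 at 72 h, and Grb10, an adaptor of receptor tyrosine kinases, by 2.53. With the slide as a block their differences were 1.17 and 2.30, with adjusted p of 0.0812 and 0.0695 from limma. Pspn, the ligand persephin, was not well above background on any array.

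Of 18 enteric glia markers, 1 was called higher and 1 lower at 3 h, against 0 and 6 at 12 h and, at 72 h, 1 and 2, with median differences of -0.67, -0.76 and -0.14. S100b, a calcium-binding protein of glia, was lower at 12 and 72 h, at -2.18 and -1.08. The potassium channel gene Kcna1 was lower at 3 and 12 h, at -2.52 and -3.29, and was well above background on 2 of the 3 arrays at 12 h. Gfap, the filament protein of reactive glia, rose by 1.97 at 3 h instead, with an adjusted p of 0.0126 from limma. Its levels were -4.37, -4.30 and -4.14 in sham and -2.67, -2.23 and -2.0 at 3 h. At 12 h they were -4.03, -3.31 and -2.21, and at 72 h -4.22, -3.49 and -2.84. The other Gfap probe, also well above background on all 12 arrays, differed by 0.41 at 3 h with an adjusted p of 0.426 from limma, so the probes disagree. Sox2 was not well above background on any array.

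Of 18 genes tied to interstitial cells of Cajal, 1 was called higher and 3 lower at 3 h, against 3 and 3 at 12 h and 5 and 0 at 72 h. Their median differences from sham were -0.10, 0.03 and -0.003. Their summed level was 26.8 to 32.6 in sham and 30.1 to 35.0 at 3 h. It was 27.6 to 31.5 at 12 h and 29.2 to 36.5 at 72 h, so every group overlapped sham. Etv1, the transcription factor that these cells need and that acts downstream of KIT, was lower at 3 and 12 h, at -1.12 and -1.38. Its levels were 0.96, 0.78 and 0.50 in sham, -0.36, -0.52 and -0.24 at 3 h, then -0.79, -0.68 and -0.42 at 12 h, and finally 0.46, 0.64 and 0.67 at 72 h, so that only the 72 h arrays overlapped sham, as for Kit. Other genes of the list moved in both directions. Prkcq rose by 2.13 at 12 h, while Cacna1c fell by 1.17 at 3 h and Prkg1 by 1.45 at 12 h. Adora1 fell by 1.17 at 3 h, but its mean at 12 h was -2.63 against -2.75 in sham. Cd44, a hyaluronan receptor that leukocytes also carry, rose by 1.59, 1.83 and 1.24, and Thbs4, a matrix protein, by 2.07 at 72 h. Of 8 genes of the PDGFRA-positive interstitial cells, 0 were called higher and 1 lower at 3 h, against 0 and 2 at 12 h and, at 72 h, 1 and 0, with Kcnn3, their small-conductance potassium channel, lower at 3 and 12 h, at -1.25 and -1.11.

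**Figure D5:**
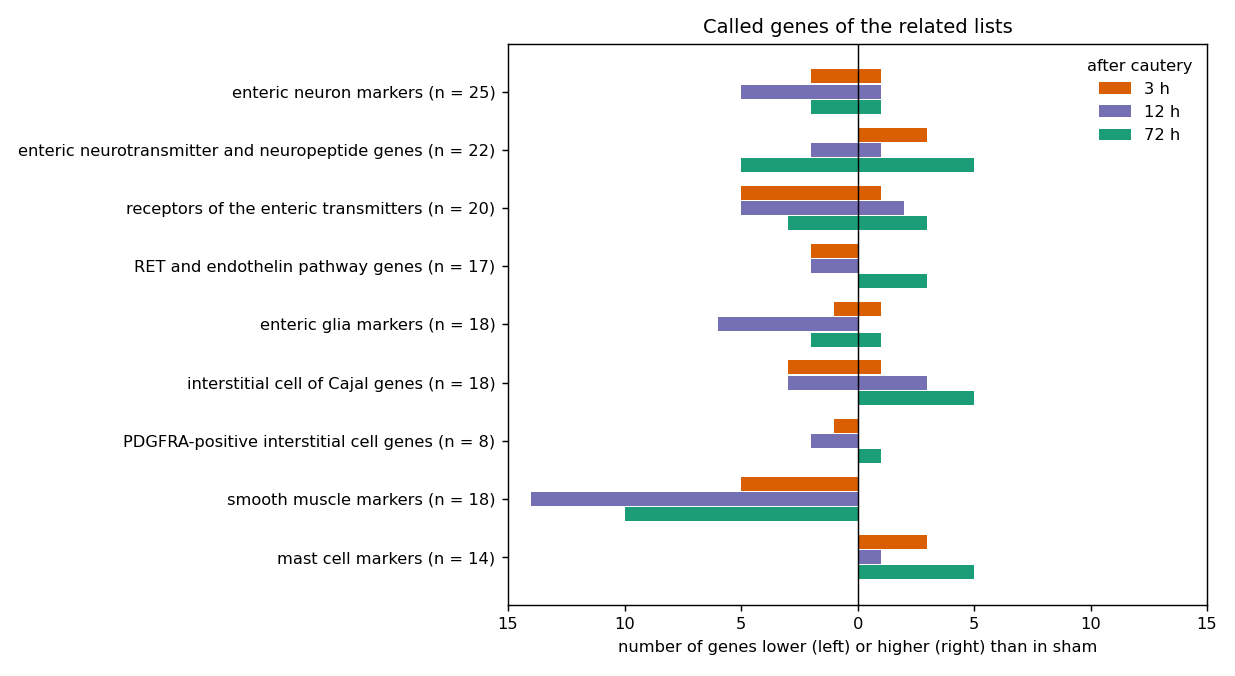
Number of genes of each related list (y axis, with the number on the array) called lower (left) or higher (right) than in sham (x axis) at 3, 12 and 72 h. Smooth muscle markers have calls to the left only, 5, 14 and 10, and glia markers have 6 to the left at 12 h. A gene that stands in several lists is counted in each. At 72 h time and slide cannot be told apart.

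In most of these lists fewer genes were called at 72 h when the slide was a block. Over all genes the number fell from 3341 to 1156. That fit ties the 72 h arrays to sham through 12 h replicate 3 alone, so a call can be lost without a smaller difference, as for Ncam1. With the slide as a block, 1 neuron marker, 1 transmitter gene, 1 receptor, 0 RET and endothelin genes, 2 glia markers, 1 gene of interstitial cells of Cajal and 2 mast cell markers were called at 72 h in either direction, while 11 smooth muscle markers were.

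Markers of the remaining cell types that the cecum holds moved as well. The summed level of 15 epithelial markers was 1696 to 1794 in sham, 2107 to 2292 at 3 h, 1565 to 1882 at 12 h and 937 to 1244 at 72 h, with 1, 0 and 0 called higher and 0, 1 and 3 lower at the 3 time points. That of 12 leukocyte markers was 85.5 to 105 in sham, 243 to 407 at 3 h, 573 to 593 at 12 h and 266 to 454 at 72 h, with 3, 5 and 4 called higher and none lower. Without the neutrophil genes S100a8 and S100a9, also left out after their values were seen, the summed level of the other 10 was 85.3 to 105 in sham, 65.9 to 80.0 at 3 h, 93.0 to 97.3 at 12 h and 77.4 to 83.0 at 72 h, and the median difference of the 12 from sham was -0.15, 0.16 and -0.19. Of 14 enteroendocrine markers 1, 1 and 1 were called higher and 0, 1 and 0 lower. Of 13 tuft cell markers, which include cells that make acetylcholine, 1, 2 and 3 were called higher and 0, 0 and 2 lower. Of 9 mesothelial markers 1, 1 and 4 were called higher and 3, 3 and 0 lower, and of 9 skeletal muscle markers 0, 0 and 0 higher and 1, 3 and 1 lower. The part of these cells in the values of the 8 genes was not tested.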

How the data were processed

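The authors deposited, for each of the 12 arrays (1-colour Agilent SurePrint G3 Mouse GE v2, Feature Extraction 11.5.1.1), the scanner output, with a background-subtracted intensity per spot on a linear scale and flags for outlier spots and spots well above background, and log2 values for the whole series, which the methods say GeneSpring GX scaled to the 75th percentile and whose rows proved to be median-centred. Probe coordinates are on mm9. From the intensities, log2 values were computed relative to each array's 75th percentile (control spots left out), outlier spots were left out and spots of 1 probe averaged. Of 56605 probes, 45761 carried a symbol, 70 were named through their RefSeq accession and 10774 stayed unnamed. Each array held 62976 spots.

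Groups follow the sample labels. The model held 4 group means over the 12 arrays and was run in limma 3.58.1 (R 4.3.3, with the data.table package, version 1.17.8), after a test on simulated data. The methods name the thresholds for the arrays but no test. The 8 genes and all lists were chosen with earlier results of these data known. Genes named from a list are up to 4 called per time point with the largest change, or those not above background on any array. For each of the 8 genes, the 2 most correlated genes were named. A few genes that these rules pick are not reported here. A fold against a group not above background was bounded by each array's dimmest signal that passed the background flag. Motifs were searched with Python 3.11.15, and RefSeq tables gave the promoters. The methods speak of biological triplicates, nothing in the labels says more, and the p-values measure the spread between these arrays. Alternatives were quantile normalization, the percentile over detected probes, the authors' log2 values, normexp (offset 50), keeping outlier spots, dropping dim probes, blocks for slide or replicate number, a robust trended eBayes, separate fits with sham, the mean of all probes, the methods' t-test, no fold threshold and leaving out each array. Values within each slide were added after the data were seen.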

Additional observations from a re-analysis of the deposited data

Results flagged for a closer look

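The difference of Vip between 72 h and 3 h was called. It was 1.23 on the log2 scale, with an adjusted p of 0.00917 from limma, and all 3 arrays at 72 h were above all 3 at 3 h. All 3 h arrays lay on slide 1 and all 72 h arrays on slide 2, so time and slide cannot be told apart in this difference. Within slide 1, Vip at 12 h lay 0.06 above 3 h, and within slide 2, Vip at 72 h lay 0.20 above the single 12 h array there.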

How the results depend on the processing

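Of 25 alternatives, 20 kept the call of Kit at 12 h and 23 that of Vip at 72 h, and the direction of each was kept in all. Genes called at 12 h went from 1 of the 8 to 0 with normexp (Kit at -0.90), the authors' table (Kit at -0.996) and the methods' t-test after Benjamini-Hochberg, and to 3 with the slide as a block, which added Uchl1 and Ret. At 72 h they went from 1 to 0 with the slide as a block (Vip at 0.48) and with that t-test. At 3 h they went from 0 to 1 when all probes of a gene were averaged, which adds Kit at -1.33. That mean takes in the Kit clone probe that was well above background on 1 array at 3 h. With no fold threshold the genes called were 2, 2 and 2. Leaving out each array in turn gave 0 to 0 at 3 h, 0 to 3 at 12 h and 1 to 1 at 72 h. The 0 at 12 h came without sham control replicate 1 or without 12 h replicate 2, and the 3 without 12 h replicate 3. For the 12 h difference from sham, that last fit is the same as the one with the slide as a block. The paired form of the methods' t-test, unadjusted and above 2-fold, called 0, 1 and 1.

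With the replicate block, 0, 1 and 1 of the 8 were called, as without it. The labels do not say whether the replicate numbers pair the samples. Of 18 pairs of same-numbered arrays, 6 had deviations correlated above 0.1, in a range from -0.40 to 0.26, which does not settle it.

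Over all genes, 2794, 3476 and 3341 were called at 3, 12 and 72 h. With normexp the counts were 833, 1354 and 1265, and with the slide as a block 1156 at 72 h. With the methods' t-test after adjustment they were 0, 2 and 0, and with no fold threshold 6993, 8072 and 7922. Called transmitter and neuropeptide genes at 72 h fell from 10 to 1 with the slide as a block. The cause of these changes was not tested. Several other probes of Chat, Nos1, Elavl4 and Uchl1 were well above background on few or no arrays, and their values are limited by signal.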
